A study of Mus musculus with 1 sample.

Results

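The 9 genes described here make up the mouse MHC class II presentation pathway as it was listed for this work. They are H2-Aa, H2-Ab1 and H2-Eb1, which encode class II chains, Cd74 (the invariant chain), H2-DMa, H2-DMb1 and H2-DMb2 (the H2-M peptide editor), Ciita (the class II transactivator) and Ctss (cathepsin S). They were listed by name, with earlier results of these data known, and they are 9 of the 32285 genes counted. Together they held 617489 of the 94528050 unique molecular identifiers (UMIs, 1 per captured RNA molecule) of the cells kept, or 0.653% of all UMIs. The study asked how the V-ATPase subunit Atp6v0a1 in colorectal cancer cells shapes the immune cells of the tumor. The library described here came from control MC38 tumors, a mouse colon adenocarcinoma line grown in C57BL/6J mice, and it was labelled wild type with no name of an shRNA. Single cells of several control tumors had been mixed in equal proportions, so the library was 1 pool with no replicates. All differences below therefore compare cells within that pool, and every interval (95%, exact) covers counting error only. The Atp6v0a1 knockdown tumors were not analysed here.

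Class II molecules display peptides taken from the endosomal pathway to CD4+ T cells. An alpha and a beta chain pair in the endoplasmic reticulum and are held there by the invariant chain, which also guides them to endosomes. Cathepsin S is known to trim the invariant chain down to a short fragment in the groove, H2-M exchanges that fragment for other peptides, and H2-O, made by H2-Oa and H2-Ob, restrains H2-M. Transcription of the class II chain genes depends on Ciita, which binds no DNA itself. It is recruited by factors sitting on paired X and Y boxes in front of those genes. Dendritic cells (DCs) and B cells make class II constitutively, whereas macrophages are known to raise it with interferon gamma. C57BL/6 mice carry only the I-A molecule at the surface, since their alpha chain gene for I-E is inactive, so the H2-Eb1 RNA counted here has no surface partner in this strain.

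In the GRCm38 annotation, 6 of the 9 genes lay within 197 kb of chromosome 17, from H2-DMa at position 34119541 to the end of H2-Eb1 at 34316674. Ciita, Ctss and Cd74 lay on other chromosomes. RefSeq promoter windows (GRCm38.p6) were at hand for 6 of the 9 genes. In the 250 bases before the start site, 4 of these 6 held X-box letters (AACNNNTGANG or AACNNTGANG) followed after 5 to 30 bases by the Y-box letters ATTGG, searched on both strands. The same arrangement stood in 68 of all 32851 windows, or 0.207%. Y-box letters alone stood in 33.8% and X-box letters alone in 4.68%. The letters were settled after some of these windows had been viewed, so the match is a description. The stretches below show the arrangement in a classical alpha and a beta chain gene, in H2-DMb2 and in H2-Ob, with the X and Y letters in capitals.
H2-Aa (chr17:34287857-34287922, minus strand): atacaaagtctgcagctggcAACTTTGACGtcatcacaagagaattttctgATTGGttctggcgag
H2-Eb1 (chr17:34305758-34305822, plus strand): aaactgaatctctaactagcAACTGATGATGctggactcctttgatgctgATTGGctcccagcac
H2-DMb2 (chr17:34145108-34145173, plus strand): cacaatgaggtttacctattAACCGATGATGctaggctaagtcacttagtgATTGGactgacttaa
H2-Ob (chr17:34238800-34238862, plus strand): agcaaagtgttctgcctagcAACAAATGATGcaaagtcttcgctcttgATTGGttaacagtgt
The X letters began 79, 89, 121 and 85 bases before the start site in H2-Aa, H2-Eb1, H2-DMb2 and H2-Ob, and 17 to 21 bases separated X from Y. H2-DMb1 held the same letters 92 bases before its RefSeq start, in a stretch (chr17:34153079-34153144) that overlapped an exon of the GRCm38 annotation. The H2-DMb2 stretch lay within the span of its gene in that annotation (34143307 to 34151555), in no annotated exon. H2-DMa and Ctss did not hold them in their windows.

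After filtering, 4443 of 5307 called cells were kept, with a median of 10428 UMIs each. Clusters were built without the class II genes and named from marker lists. Macrophage-like cells (1500 cells) had all 12 macrophage markers raised over non-myeloid cells. They fell into Cxcl9-high macrophages (594 cells, with 7 of 10 interferon state genes raised over other myeloid cells), Arg1-high macrophages (80 cells, 9 of 9 genes of the Arg1 state), cycling macrophages (238 cells, 8 of 8 cycling genes), a Lyve1-high cluster of 23 cells, and 565 intermediate macrophages in which no interferon state gene and 1 Arg1 state gene was raised. Monocyte-like cells (200) had 7 of 8 monocyte markers raised and DC-like cells (46) had 15 of 16 DC markers. Of the remaining cells, 1833 were tumor cells (10 of 12 tumor markers), 171 T and NK-like cells (12 of 12 T and 6 of 7 NK markers) and 104 fibroblast-like cells (10 of 11 fibroblast and 8 of 8 pericyte markers). A further 172 shallow myeloid cells and 417 cells stayed unnamed. Depth differed widely, with median UMIs of 38207 in tumor cells, 8988 in macrophage-like cells and 1018 in fibroblast-like cells.

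The class II RNA of this tumor sat in its myeloid cells. A class II sum was formed from H2-Aa, H2-Ab1, H2-Eb1 and Cd74 and expressed as UMIs per 1000000 UMIs of a group, which is the unit of every level below. DC-like cells had the highest sum at 48532 (47854 to 49217), followed by Cxcl9-high macrophages at 44777 (44580 to 44975). Intermediate macrophages had 26611 (26477 to 26744), cycling macrophages 24901 (24727 to 25076) and monocyte-like cells 23519 (23231 to 23811). Arg1-high macrophages stood well below them at 12276 (12052 to 12503), and the 23 Lyve1-high cells at 10045 (9543 to 10567). Outside the myeloid cells the sum was 1413 in fibroblast-like cells, 813 in T and NK-like cells and 164 (161 to 167) in tumor cells. Counting intervals of neighbours in this order did not overlap, although other settings moved several of these values by more than their intervals and turned parts of the order. DC-like cells were above the Cxcl9-high cluster in 7 of 9 other clusterings and above the intermediate macrophages in 8 of 10. Macrophage-like cells were 33.8% of the cells and held 86.0% of the class II sum, whereas tumor cells were 41.3% of the cells and held 2.42%. DC-like cells held 3.80% of it with 1.04% of the cells. 

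**Figure D1:**
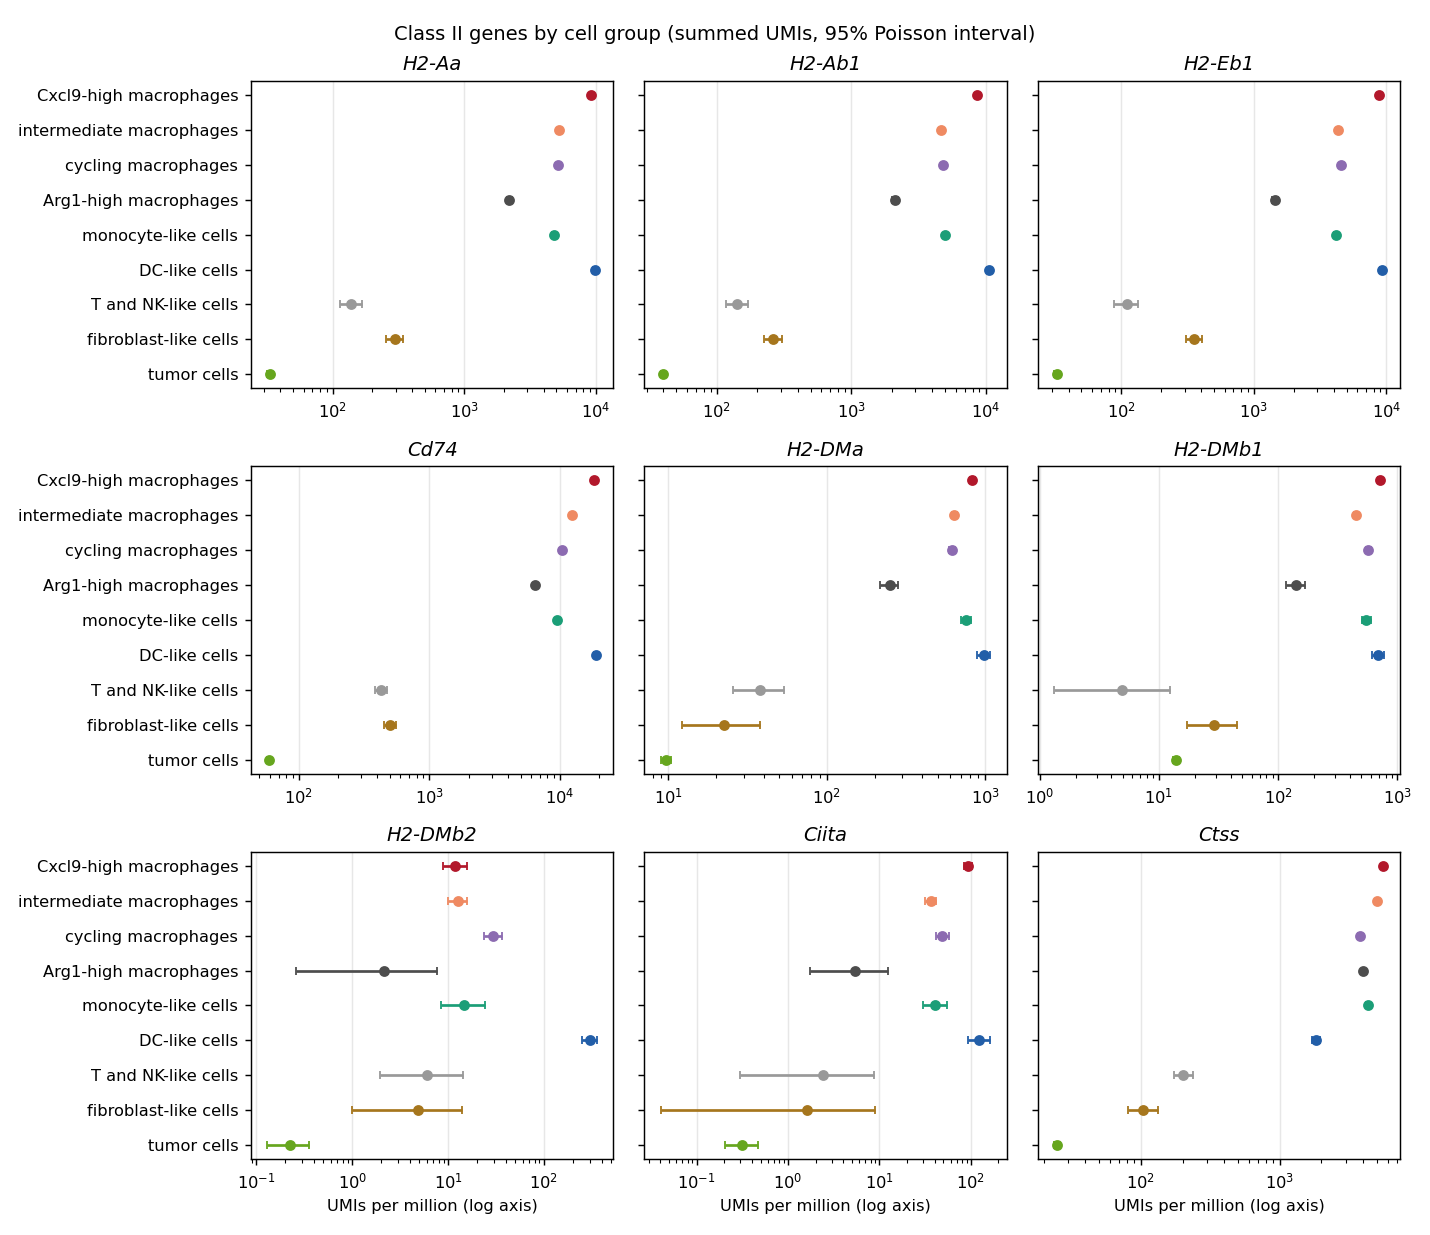
Level of each of the 9 genes (horizontal log axis, UMIs per 1000000 UMIs) in 9 cell groups (rows), with the 95% Poisson interval of the summed counts. DC-like cells and Cxcl9-high macrophages lie furthest right for the class II chains and Cd74, H2-DMb2 stands out in DC-like cells at 300.1, and Ctss is lower in DC-like cells (1833) than in every macrophage state.

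Single cells within a group spread broadly. In Cxcl9-high macrophages the class II sum had a median of 359 UMIs per 10000 UMIs of a cell, with the middle 80% of cells between 35.0 and 725. Arg1-high macrophages had a median of 67.0, with the middle 80% between 12.9 and 265. The ranges overlapped, yet 3 of 80 Arg1-high cells lay above the median Cxcl9-high cell, as did 161 of 565 intermediate and 54 of 238 cycling macrophages. DC-like cells were the most even group, from 306 at the 10th percentile to 665 at the 90th, and 37 of 46 lay above the median Cxcl9-high cell. Monocyte-like cells ran from 7.76 to 498. All but 5 of the 1500 macrophage-like cells held at least 1 UMI of the 4 genes. Part of the spread went with depth: in Cxcl9-high macrophages sorted by total UMIs into 3 bins of 198 cells, the sum was 19403 in the shallowest bin (median 2188 UMIs), 43051 in the middle and 50411 in the deepest. Arg1-high macrophages, sorted in the same way, had 9282, 13223 and 12500. Their bins were deeper, with medians of 5743, 11773 and 17078 UMIs against 2188, 7142 and 11604, so the bins were not matched for depth. All of the Arg1-high values lay below the 19403 of the shallowest Cxcl9-high bin.

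**Figure D2:**
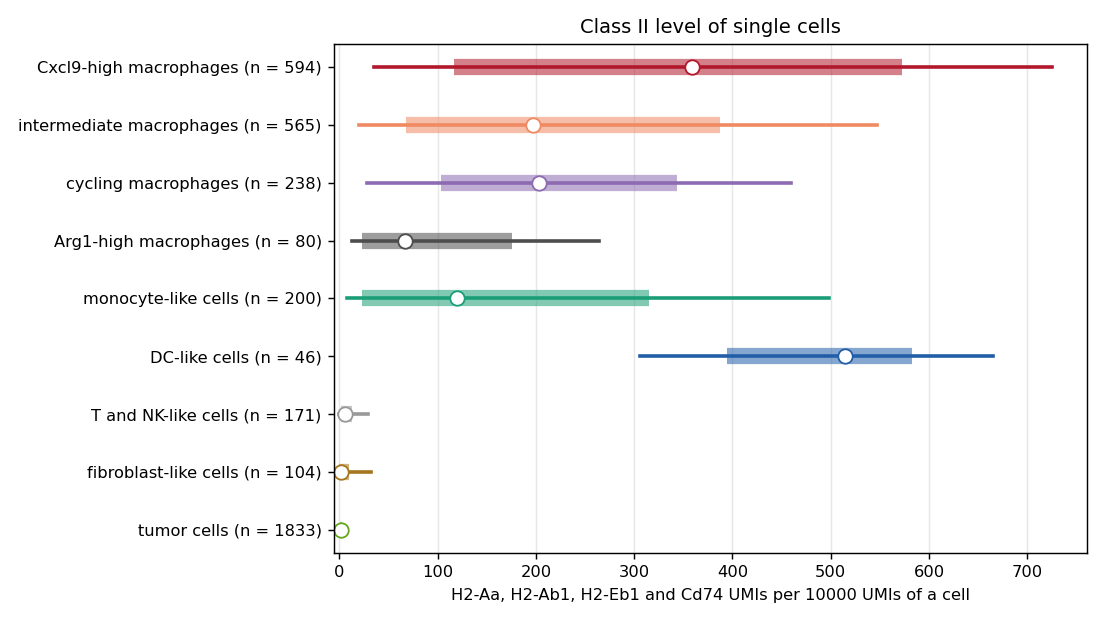
Class II sum of single cells (UMIs of H2-Aa, H2-Ab1, H2-Eb1 and Cd74 per 10000 UMIs of the cell) in 9 groups: circles are medians, thick bars the middle 50% and thin bars the middle 80% of cells. DC-like cells form a narrow band around a median of 514, macrophage states overlap, and tumor cells lie at a median of 1.36.

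The first comparison asked how far class II followed the state of the macrophages. Between Cxcl9-high and Arg1-high macrophages the class II sum differed 3.65-fold (3.58 to 3.72). Each gene had the higher level in Cxcl9-high cells, and 8 of the 9 differed at least 2-fold, against 19.1% of the 7434 genes with at least 50 UMIs over both groups. No gene of the 9 was at least 2-fold lower (4.92% of all genes were). The median ratio was 4.17 over the 9 genes and 1.26 over all genes. The genes did not differ by the same factor.

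Ciita had the widest difference. It was counted 411 times in Cxcl9-high and 5 times in Arg1-high macrophages, or at 92.8 (84.0 to 102) against 5.37 (1.74 to 12.5), a ratio of 17.3 (7.35 to 53.5). Over the alternatives this ratio ran from 3.995, with at most 10% mitochondrial UMIs, to 23.9. At least 1 Ciita UMI was found in 227 of 594 Cxcl9-high cells (median depth 7142 UMIs) and in 4 of 80 Arg1-high cells (median depth 11656 UMIs). With every cell thinned to 1000 UMIs, and 13 shallower Cxcl9-high cells left out, it was found in 61 of 581 and in 1 of 80. Tumor cells, which are far deeper, gave 1.25% before and 0.0550% after thinning.

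Among the chains, H2-Eb1 differed most, at 8756 against 1451, a ratio of 6.03 (5.72 to 6.38). H2-Aa (9170 against 2199) had a ratio of 4.17 (3.99 to 4.36) and H2-Ab1 (8709 against 2119) a ratio of 4.11 (3.93 to 4.30). Cd74 differed less, at 18142 against 6507, a ratio of 2.79 (2.72 to 2.86). As a result Arg1-high macrophages held 2.96 (2.81 to 3.11) Cd74 UMIs per H2-Aa UMI, and Cxcl9-high macrophages 1.98. Intermediate macrophages lay between them with 2.37. H2-Eb1 per H2-Aa went the other way, with 0.660 in Arg1-high and 0.955 in Cxcl9-high cells. Each captured molecule gives 1 UMI whatever the length of its transcript, so these ratios carry the unknown capture of each gene and are compared only between groups.

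Of the peptide editor, H2-DMb1 differed 5.05-fold (710 against 141) and H2-DMa 3.33-fold (829 against 249). H2-DMb2 was close to the limit of counting in both states, with 53 and 2 UMIs. The smallest difference belonged to Ctss, at 5570 against 4019, a ratio of 1.39 (1.34 to 1.43), which is near the median of all genes. Ctss and Cd74 thus had the smallest ratios of the 9 genes.

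The rest of the pathway was read from lists fixed by name. Of 9 induction genes, 8 could be compared and 3 were at least 2-fold higher in Cxcl9-high cells. Among them were Irf1 (183 against 52.6), a transcription factor of interferon signaling, and Spi1 (PU.1, 532 against 253). Ifng was counted 0 times in either state, where 3 counts would be 0.677 in Cxcl9-high cells. The partners of Ciita on DNA differed less: of 6 compared, only Nfyc (21.7 against 8.59) reached 2-fold, and Rfxap, Nfya and Nfyb had ratios of 0.694, 0.935 and 0.705. Among the processing enzymes of endosomes none of 7 was 2-fold higher and 2 were at least 2-fold lower, Ctsl (413 against 1760) and Ctsd (1016 against 2165). Of the 9 class I genes 4 passed 2-fold and none was 2-fold lower. The transactivator Nlrc5 (58.2 against 12.9), Psmb9, Tap2 and Tapbp were those 4, whereas H2-K1 (2948 against 2597), H2-D1 (2929 against 3486) and B2m (6146 against 6366) had ratios of 1.14, 0.840 and 0.965. Co-stimulation was mixed, with Cd40 (59.6 against 27.9) and Icosl (26.4 against 2.15) higher in Cxcl9-high cells and Cd86 (129 against 163) slightly lower. The Icosl level in Arg1-high cells was below that of 3 counts, so the size of its difference is uncertain.

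The size of this difference depended on where the clusters were drawn. Over 9 other clusterings that held both states, the ratio of the class II sum ran from 1.76 to 3.87, and the Arg1-high cluster held 82 to 326 cells. Of the 8 or 9 genes that could be compared, 3 to 8 differed at least 2-fold in these clusterings, beside 5.31% to 17.9% of all genes. The 8 and the 17.9% came from the clustering that kept the class II genes as features, so that its groups were partly drawn by them. In the others at most 7 genes differed. The 3 (H2-Ab1, H2-Eb1 and Ciita) came at a limit of 10% mitochondrial UMIs. There H2-DMb2 had a ratio of 0.918. Among the Cxcl9-high, intermediate, cycling and Arg1-high states, where present, the Arg1-high cells had the lowest sum in 10 of 10 other clusterings. The Lyve1-high cells, lower still in the clustering described, were not followed through the others. The cluster that met the interferon list was above the intermediate macrophages in 6 of 9 and below them in 3. At a resolution of 0.8, for example, it held 156 cells with an Ifit2 level of 613 and a class II sum of 27402, against 35088 in the intermediate cells. With no limit on mitochondrial UMIs it was also small (185 cells, an Ifit2 level of 484), and its sum of 35898 was above the 34501 of the intermediate cells.

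Levels of the state genes in single cells gave the same ordering without clusters. Of the 1500 macrophage-like cells, 571 held no Cxcl9 UMI and had a class II sum of 18872. Cells with Cxcl9 (an interferon gamma-induced chemokine), split into 3 bins by its level, had sums of 27469, 37491 and 46349. Ciita stood at 30.3 in cells without Cxcl9 and at 87.2 in the upper bin. For Arg1 (arginase 1) the order was inverted, from 36955 in the 667 cells without it through 36043 and 26243 to 18629 in the upper bin, and Ciita went from 74.4 to 19.7. Cells in the upper Arg1 bin were deeper (median 11004 UMIs) than cells without Arg1 (7356), and cells in the upper Cxcl9 bin (9338) deeper than cells without Cxcl9 (7068). Spp1, which encodes osteopontin, behaved like Arg1, with sums from 36261 down to 18172.

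**Figure D3:**
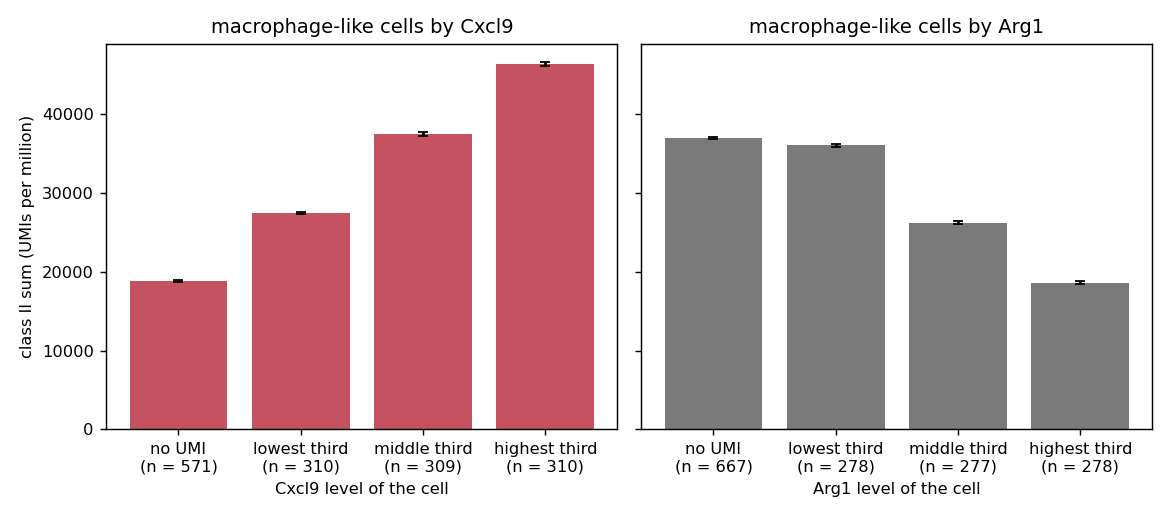
Class II sum (UMIs per 1000000 UMIs, 95% Poisson interval) of macrophage-like cells binned by their own Cxcl9 level (left) or Arg1 level (right): cells with no UMI of the gene, then 3 bins of nearly equal size. The sum is 18872 in cells without Cxcl9 and 46349 in the upper Cxcl9 bin, against 36955 without Arg1 and 18629 in the upper Arg1 bin.

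In the Cxcl9-high, intermediate, cycling and Arg1-high states, cells in which Ciita was detected had more class II. The sum was 52981 in the 227 Cxcl9-high cells with a Ciita UMI and 37214 in the 367 without. Among intermediate macrophages it was 39255 against 22086, among cycling macrophages 33440 against 19024, and in the 4 Arg1-high cells with Ciita 23512 against 11406. Cells with a Ciita UMI were also deeper in each of these states, for example 8968 against 5502 UMIs at the median in Cxcl9-high cells, and the part of depth in the difference was not tested. In DC-like cells the values lay closer together, at 50474 with and 44486 without a Ciita UMI.

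The 3 chains and Cd74 varied together from cell to cell. Over 1481 macrophage-like cells thinned to 1000 UMIs, Pearson's r between any pair of these 4 genes was 0.784 to 0.814. H2-DMa and H2-DMb1 followed H2-Aa with 0.328 and 0.340, and Ctss with 0.408. Ciita gave 0.102 and H2-DMb2 0.033, both at UMI counts too sparse for a cell-level relation to be read. The cells share 1 library, and these coefficients are descriptions.

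Outside the 9 genes, those whose level over the 1500 macrophage-like cells was most like the class II sum were AW112010 (r = 0.489), Cxcl9 (0.440), Fcgr4 (0.429), Tmem176b (0.429), C1qa (0.402), C1qc (0.397), Aif1 (0.397), Ly86 (0.391), Tmem176a (0.387) and Apoe (0.382). The choice was made among 6849 genes found in at least 10% of these cells, whose median r was 0.021. AW112010 had a level of 2697 in Cxcl9-high and 961 in Arg1-high macrophages. At the other end stood Lgals1 (r = -0.456), S100a6 (-0.376), Anxa2 (-0.272), S100a10 (-0.272), Adam8 (-0.263), Ahnak (-0.245), F13a1 (-0.242), S100a4 (-0.242), Pf4 (-0.232) and Gm42418 (-0.221). Adam8, a membrane protease, had 58.9 in Cxcl9-high and 697 in Arg1-high cells. S100a4 (347 against 298) and Gm42418 (10577 against 7546) were instead higher in Cxcl9-high cells. Apoe, from the first list, was slightly lower there (27808 against 28992). All other listed genes had the direction of the example from their own list. The class II sum itself had an r of 0.296 with the log of a cell's total UMIs. Over the 12 cell groups, Ckb, Plcb2, Plbd1, Spi1, Cxcl16, Csf2ra, Ms4a6c, Card9, Rasa4 and Pld4 followed the class II sum most closely, with r from 0.963 to 0.982 over 12 points that share the contrast of myeloid with other cells.

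The second comparison set DC-like cells, the professional presenting cells of the tumor, against macrophage-like cells. The class II chains were only moderately higher in DC-like cells. H2-Ab1 had 10560 against 5748, a ratio of 1.84 (1.78 to 1.89), H2-Eb1 9260 against 5514 with 1.68, H2-Aa 9863 against 6197 with 1.59, and Cd74 18848 against 13266 with 1.42 (1.39 to 1.45). Set against Cxcl9-high macrophages alone, the class II sum of DC-like cells was 1.08 times as high (1.07 to 1.10). That order turned with doublets kept (45404 in DC-like against 47453 in Cxcl9-high cells) and with at most 10% mitochondrial UMIs (31279 against 33654). Of the 9 genes 2 were at least 2-fold higher in DC-like than in macrophage-like cells, against 6.41% of 9798 genes, and 1 was at least 2-fold lower, against 21.6%. The advantage of DC-like cells in the chains depended on the cluster: with at most 10% mitochondrial UMIs the cluster named by DC markers held 222 cells with a class II sum of 31279, and at a resolution of 0.3 the sum was 30313.

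The largest differences lay in a beta chain gene of the peptide editor and in its regulator H2-O. H2-DMb2 was counted 121 times in 46 DC-like cells and 221 times in 1500 macrophage-like cells, a level of 300.1 (249 to 359) against 15.3 (13.4 to 17.5) and a ratio of 19.6 (15.5 to 24.5). That ratio was 5.80 with at most 10% mitochondrial UMIs and 5.92 at a resolution of 0.3, where the cluster named by DC markers was larger (222 and 347 cells). It was found in 65.2% of DC-like and 10.5% of macrophage-like cells, and after thinning to 1000 UMIs in 6 of 46 and 15 of 1481. In tumor cells the shares were 0.927% before and 0.0550% after thinning. H2-DMb1 differed by a factor of 1.29 (687 against 533) and H2-DMa by 1.47 (975 against 662). DC-like cells thus held 0.437 H2-DMb2 UMIs per H2-DMb1 UMI and macrophage-like cells 0.029. H2-DMb1 and H2-DMb2 are neighbouring copies. In the GENCODE M21 transcripts, 51 of the 410 stretches of 91 bases in the last 500 bases of H2-DMb1 also stood in an H2-DMb2 transcript and 0 of 410 the other way, so a part of the H2-DMb1 counts is uncertain.

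H2-Oa and H2-Ob, the chains of H2-O, showed the same pattern as H2-DMb2. H2-Oa had 241 (195 to 294) in DC-like and 7.36 in macrophage-like cells, a ratio of 32.7 (24.6 to 43.5). H2-Ob had 81.8 against 7.63, a ratio of 10.7 (7.03 to 15.9). H2-Eb2, a further class II beta chain gene, was counted 10 times, in 3 of 46 DC-like cells (24.8, interval 11.9 to 45.6), and 0 times among 14407807 UMIs of macrophage-like cells. Its level was 119 times the limit of 3 counts over that group, and the lower end of the exact interval of the ratio was 80.1. Ciita was 2.29-fold higher (124 against 54.1, interval of the ratio 1.69 to 3.05), and 1.23-fold and 1.25-fold higher in the 2 larger clusters named above.

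Ctss went the other way. Cathepsin S had 1833 (1703 to 1970) in DC-like and 4818 (4782 to 4854) in macrophage-like cells, a ratio of 0.380 (0.353 to 0.409). With at most 10% mitochondrial UMIs the ratio was 0.732 and at a resolution of 0.3 it was 0.821, no longer 2-fold. Of the 7 other processing genes of endosomes, 5 were at least 2-fold lower in DC-like cells. Ctsd (59.5 against 1369) and Ctsb (193 against 2573) had ratios of 0.0435 and 0.0752, and Lgmn (196 against 1450) 0.135. Ifi30, a thiol reductase that opens disulfide bonds of antigens, was higher with 1798 against 975, and Sppl2a had a ratio of 0.970. Of the 4 co-stimulatory genes Cd80 (17.4 against 4.72) and Cd40 (79.4 against 38.9) passed 2-fold, and all 9 class I genes stayed within 2-fold, from Nlrc5 at 0.590 to Psmb9 at 1.79. No B cell marker of 7 and no plasmacytoid DC marker of 6 was raised in the DC-like cells over other myeloid cells.

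**Figure D4:**
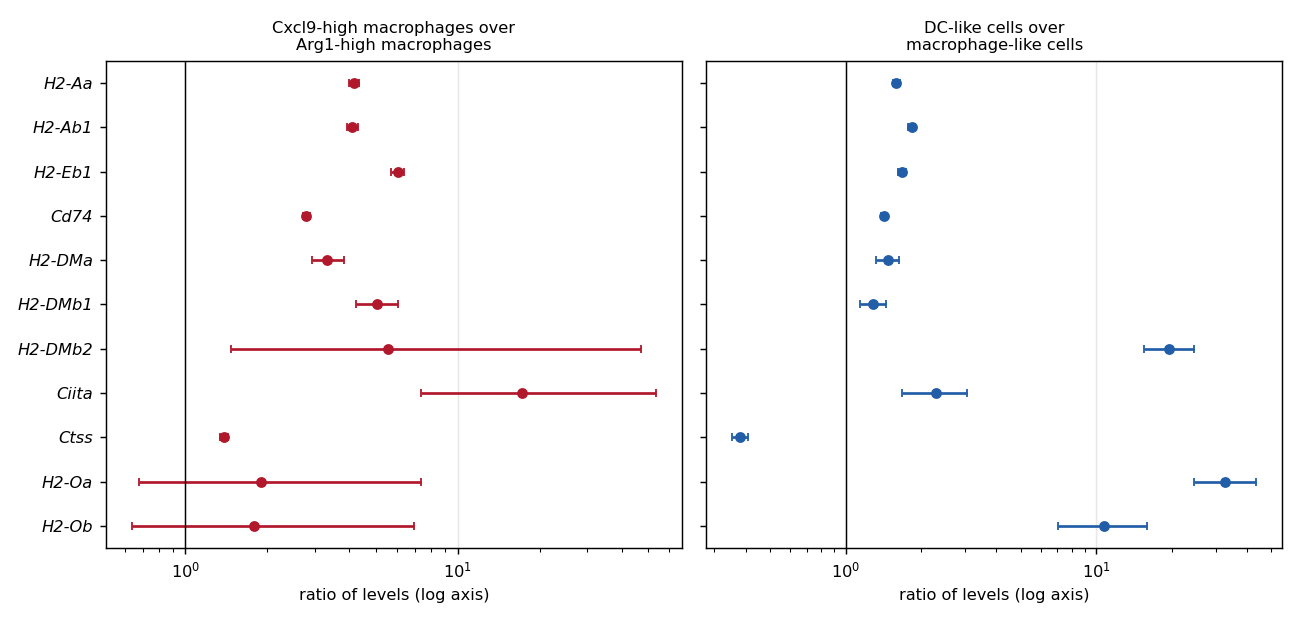
Ratio of levels (log axis, 95% interval, vertical line at 1) for the 9 genes with H2-Oa and H2-Ob, Cxcl9-high over Arg1-high macrophages on the left and DC-like over macrophage-like cells on the right. Ciita leads on the left with 17.3, H2-Oa, H2-DMb2 and H2-Ob lead on the right with 32.7, 19.6 and 10.7, and Ctss lies nearest to 1 on the left and below 1 on the right.

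DC-like cells were themselves mixed. Xcr1 or Clec9a, markers of the cross-presenting subset, were detected without Ccr7 in 10 cells, Ccr7 (migratory DCs) in 3, and none of these in 33. The 33 cells were shallower, with a median of 5918 UMIs against 10682.5 in the 10 and 10785 in the 3. Markers may thus have been missed in some of them, and the part of depth was not tested. H2-DMb2 was higher in the 33 cells (384, interval 312 to 467) than in the 10 (153, interval 87.7 to 249). For H2-DMb1 the order was inverted, with 610 (519 to 713) in the 33 and 1132 (937 to 1356) in the 10. Ctss had 2341 in the 33 cells, 902 in the 10 and 912 in the 3. The 3 Ccr7 cells held 0 UMIs of H2-DMb1 and Ciita and 2 of H2-DMa, and their class II sum of 30354 was below the 54839 of the 10 cells.

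H2-DMb2 was also higher in cycling macrophages than in the other macrophage states. Cycling macrophages had an H2-DMb2 level of 29.6, against 12.0 in Cxcl9-high and 12.7 in intermediate macrophages. Of their 93 H2-DMb2 UMIs, 39 came from 16 cells with UMIs of at least 3 DC markers, at a level of 144 (102 to 196). The other 222 cells had 18.8 (14.1 to 24.5). Flt3, Xcr1 and Kit, 3 of 16 DC markers, were raised in this cluster over other myeloid cells. In the chains and Cd74 the cycling macrophages resembled the intermediate ones, with ratios of 0.984 for H2-Aa, 1.02 for H2-Ab1, 1.06 for H2-Eb1 and 0.841 for Cd74. H2-DMa was also close (614 against 638). H2-DMb1 (570 against 449) and Ciita (48.7 against 36.2) were higher in cycling cells, and Ctss (3764 against 5013) was lower.

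Monocytes are blood-derived precursors of many tumor macrophages, and the monocyte-like cluster held class II RNA. None of the 9 genes differed 2-fold from macrophage-like cells, where 2.1% of 9839 genes were at least 2-fold higher and 11.8% lower, and the median ratio was 0.875 against 0.921 over all genes. The class II sum was 0.765 times (0.756 to 0.775) that of macrophage-like cells and 1.92 times that of Arg1-high macrophages. Cd74 had the lowest ratio (9541 against 13266, 0.719) and H2-DMa the highest (753 against 662, 1.14). Within the 200 cells, class II was lower where the monocyte marker Ly6c2 was higher. Split into 3 bins by Ly6c2, the sum was 29080 (28566 to 29600) in the lower bin, 22898 in the middle and 15390 (14913 to 15878) in the upper bin. H2-DMb1 went from 691 to 328 and H2-Aa from 5883 to 2909, while Ctss was 3865 in the lower and 4594 in the upper bin. The bins differed in depth, with medians of 5013, 4904 and 3572 UMIs. Split by C1qa, a macrophage gene, the sum was 15532 in the lower and 30973 in the upper bin, with medians of 3847 and 6113 UMIs. The part of depth was not tested. The monocyte-like level was the least stable to processing, at 1414 in a cluster of 37 cells with at most 10% mitochondrial UMIs and at 15340 with 20 principal components.

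In the T and NK-like cluster, 30 of 171 cells held no UMI of the class II sum. Of its 668 UMIs, 207 came from 2 cells with UMIs of the B cell genes Cd79a or Ms4a1 and 0 UMIs of Cd3e. Those 2 cells also held all 5 H2-DMb2 and both Ciita UMIs of the cluster. The other 169 cells had a sum of 569 (518 to 623), or 1.85% of the macrophage-like level. That compares with 1.08% to 2.60% for 8 of 10 macrophage genes in the whole cluster. Tyrobp (23.9%) and Fcer1g (15.9%), which NK cells also express, stood above them. In the 169 cells Ctss reached 4.18% and H2-DMa 4.66%, and Ciita was counted 0 times, where 3 counts are the limit.

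Fibroblast-like cells had a class II sum of 1413 from 881 UMIs in 104 cells, 45 of which held none. Relative to macrophage-like cells the chains stood at 4.76% (H2-Aa), 4.58% (H2-Ab1) and 6.43% (5.61 to 7.33, H2-Eb1), and Cd74 at 3.77%. The 10 macrophage genes ranged from 1.22% to 4.73% with a median of 2.25%. Ctss, at 2.16%, was within that range, as was H2-DMa with 14 UMIs (3.39%), while H2-DMb1 had 18 UMIs (5.41%) and H2-DMb2 had 3. Median depth was 1018 UMIs here and 8988 in macrophage-like cells, and 1 Ciita UMI was counted. The unnamed cells, shallow and with a sum of 1804, held the 9 genes at 5.22% to 16.8% and the macrophage genes at 4.14% to 12.2% of the macrophage-like level.

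Tumor cells were deep enough for low levels to be counted. Their 75958945 UMIs held 2514 of H2-Aa (33.1), 3012 of H2-Ab1 (39.7), 2462 of H2-Eb1 (32.4), 4497 of Cd74 (59.2), 24 of Ciita (0.316) and 1895 of Ctss (24.9). These 6 genes stood at 0.446% to 0.690% of their level in macrophage-like cells. The 10 macrophage genes stood at 0.393% to 0.819%, with a median of 0.523%. H2-Ab1 was found in 68.3% of tumor cells and in 6.38% after thinning to 1000 UMIs, while C1qa, which tumor cells should lack, was at 35.1, close to H2-Aa. The 3 chains, Cd74, Ciita and Ctss thus lay within the range of the macrophage genes. Ratios between them were not all those of macrophage-like cells. H2-Ab1 per H2-Aa was 1.20 (1.14 to 1.26) in tumor cells and 0.928 in macrophage-like cells, and Cd74 per H2-Ab1 was 1.49 against 2.31. Ctss per H2-Aa was closer, at 0.754 against 0.777. The source of these UMIs in tumor cells was not tested. The class II sum of tumor cells was 254 with doublets kept, 285 as a mean over cells, 269.5 after thinning and 513 in cells chosen by UMIs of Shisal2b and Rhox5 alone. Class I was different: its 9 genes stood at 48.2% to 142% of the macrophage-like level, and B2m alone had 2772 against 5669. The partners of Ciita on DNA stood at 38.3% to 176%, and Irf1 had a level of 126 in both tumor and macrophage-like cells. Cxcl9 reached 115, or 10.7%, whereas the myeloid factors Spi1 and Irf8 stood at 0.499% and 0.480%.

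The peptide editor was the exception in tumor cells. H2-DMb1 was counted 1059 times, a level of 13.9, or 2.61% (2.45 to 2.79) of the macrophage-like level, and H2-DMa 735 times, a level of 9.68, or 1.46% (1.35 to 1.58). H2-DMb2, with 17 UMIs, stood at 1.46% (0.835 to 2.39). All lay above the highest of the 10 macrophage genes, Apoe at 0.819%. The 1833 cells were split into 3 bins of 611 by their level of the 10 macrophage genes. H2-Aa was 19.7 in the lower and 76.2 in the upper bin. C1qa, at 18.7 and 88.7, is 1 of the 10 sorting genes, so its rise was fixed by the sorting. Over the same bins H2-DMb1 went from 12.1 to 16.7, and H2-DMa from 6.20 to 17.1. The lower bin was deeper, with a median of 53301 UMIs against 13522. In UMIs per cell H2-DMb1 went from 0.678 to 0.344, H2-DMa from 0.347 to 0.354 and H2-Aa from 1.10 to 1.57. The part of depth was not tested. H2-DMb1 per H2-DMa was 1.44 in tumor cells and 0.805 in macrophage-like cells. H2-DMb1 stood at 18.3 in the tumor cluster of 871 cells (median 31343 UMIs) and at 11.2 in that of 854 cells (median 53862 UMIs). C1qa went the same way between them, with 44.2 and 28.1, as did H2-Aa, with 41.6 and 27.0. A further cluster of 108 cells had an H2-DMb1 level of 13.1 from 7 UMIs and a C1qa level of 133. The UMIs of H2-DMb1 were thus not limited to 1 of these clusters.

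**Figure D5:**
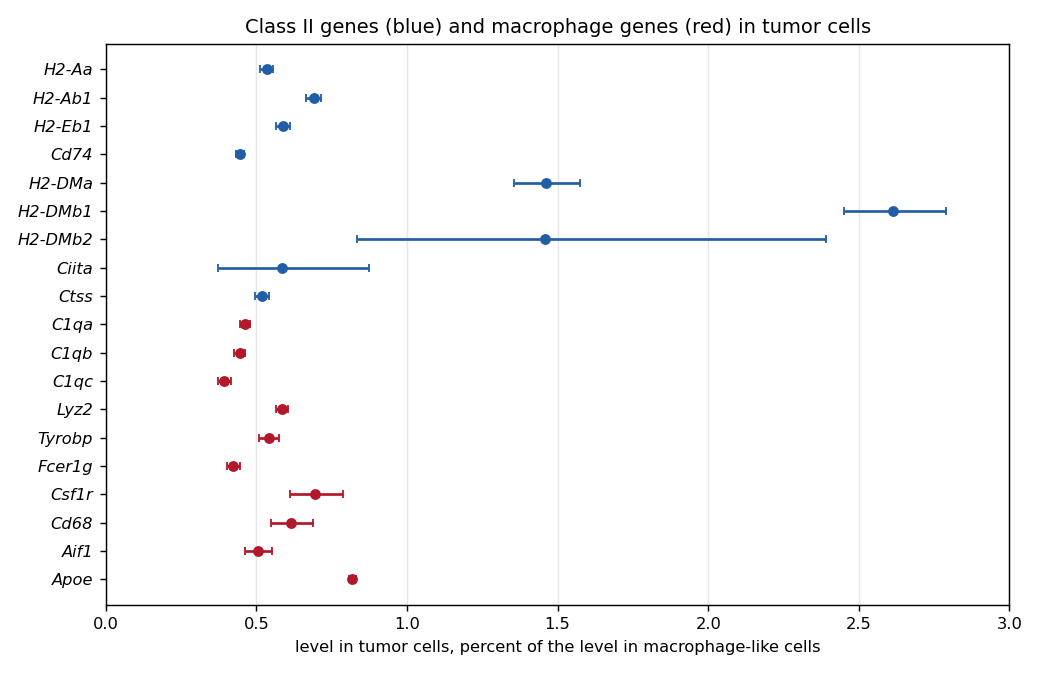
Level in tumor cells as a percent of the level in macrophage-like cells (95% interval) for the 9 class II pathway genes (blue) and 10 macrophage genes (red). The chains, Cd74, Ciita and Ctss lie among the macrophage genes at 0.446% to 0.690%, while H2-DMb1 at 2.61% and H2-DMa at 1.46% lie to their right.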

How the data were processed

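The authors deposited UMI counts per gene and called cell (10x Genomics 3' kit, without normalization) of 1 pooled library. The file header names Cell Ranger 5.0.1 and the study's methods an earlier major release. The submitters' processing notes give the build GRCm38 (mm10). No column of another sample was found (0).

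Cells with fewer than 200 genes or over 20% mitochondrial UMIs (667 of 5307) were left out. Against 2 simulated doublets per cell, the 197 cells of highest score were then removed, at a rate of 0.8% for each 1000 called cells. Log levels per 10000 UMIs of 2000 variable genes (1000 within myeloid cells), class II genes excluded, gave 30 principal components (15) and, with 20 neighbors, Leiden clusters at a resolution of 0.5. A marker list named a cluster if at least 3 of its genes were raised (5 UMIs and 2 times the level outside) and 50% of the cells held 2 of them (1 within myeloid cells, where 50% of the list had to be raised). Shallow clusters (below 0.333 of the library's median) also needed a list gene among their 10 leading genes. In tumor clusters Shisal2b and Rhox5 had to reach 5 times their myeloid level. This naming rule, the resolution used within myeloid cells, the doublet number, the promoter letters and the bins and subsets of cells were set after the data had been seen.

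Levels are summed UMIs with exact Poisson intervals, ratios have exact conditional intervals, and a count of 0 is given the limit of 3 counts. With 1 library no test was possible. Genes with at least 50 UMIs over both groups were compared, and ratios of at least 2 counted. Named genes are the 9 members, the listed pathway and marker genes, and the 10 genes most and least like the class II sum. Cd79a, Ms4a1 and DC markers inside other clusters were singled out after their values were seen. Members and lists were chosen with earlier results of these data known. The ratio step was tested on simulated data. Sequences came from RefSeq, and positions and transcripts from GENCODE M21. The tools were leidenalg 0.10.2, igraph 0.11.9, scikit-learn 1.9.0, scipy 1.17.1, numpy 2.4.6 and pandas 2.3.3 in Python 3.11.15, with plots by matplotlib 3.10.9.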

Additional observations from a re-analysis of the deposited data

How the results depend on the processing

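No paired analysis was possible because there was 1 library and no test. Of 398 values recomputed for 34 results under 17 alternatives, 194 moved by less than their counting interval, 200 by more and 4 changed direction. These 4 were Cd74 in DC-like over macrophage-like cells (0.955 with at most 10% mitochondrial UMIs, 0.872 at a resolution of 0.3), H2-Aa in the same comparison (0.991 at 0.3) and H2-DMb2 in Cxcl9-high over Arg1-high macrophages (0.918 with at most 10%). The causes were not tested. The class II sum of macrophage-like cells became 30539 with at most 10% mitochondrial UMIs, 30894 with no limit, 30327 with at least 500 genes, 30583 with doublets kept, 30856 with 3000 variable genes, 31312 at a resolution of 0.3, 30967 with 20 principal components, 30298 with another seed, 28098 as a mean over cells, 28301 after thinning and 28829 in cells with Cd68 and Adgre1. In monocyte-like cells it became, in the order of the first 5 of these settings, 1414 (37 cells), 18634, 22179, 24093 and 25207, then 23208 at a resolution of 0.8, 15340 with 20 components, 24304 with another seed, 24487 with class II genes kept as features, 19678 as a mean over cells, 20128 after thinning and 25203 in myeloid cells with Ly6c2 and without Adgre1. In DC-like cells it became 31279 with at most 10% mitochondrial UMIs, 47158 with 500 genes, 45404 with doublets kept, 44635 with 3000 genes, 30313 at 0.3, 47687 with 20 components and 37414 in myeloid cells with 3 DC markers. In tumor cells it became 160.6 with no mitochondrial limit, 173 with 500 genes, 254 with doublets kept, 285 as a mean over cells, 269.5 after thinning, 513 in cells with Shisal2b and Rhox5, and 342 in the 9 tumor cells without UMIs of the 10 macrophage genes. The ratio of Cxcl9-high to Arg1-high macrophages became 1.76 with at most 10% mitochondrial UMIs, 2.98 with no limit, 2.63 with 500 genes, 3.87 with doublets kept, 1.92 with 3000 genes, 2.22 at 0.8, 1.78 with 20 components, 3.39 with another seed, 3.87 with class II genes kept, 3.31 as a mean over cells and 3.45 after thinning. At a resolution of 0.3 no cluster met the interferon or the monocyte list, so those values could not be had. Depth limited Ciita and H2-DMb2 most, with 5 and 2 UMIs in Arg1-high macrophages.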
